A study of Mus musculus with 10 samples.

Results

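The 35 genes described here encode the transcription factor NRF2 (Nfe2l2), its inhibitor Keap1, and enzymes of glutathione, thioredoxin, NADPH and iron handling that belong to the antioxidant response. They form a list of symbols. All 35 were found among the 16154 genes of the deposited table. PolyA RNA was sequenced from AT2 cells (alveolar type II cells, the epithelial cells that make lung surfactant), which had been sorted from lungs of C57BL/6 mice aged 8 to 10 weeks. Libraries from 5 mice are labelled wild type (replicates 2 to 6) and libraries from 5 mice HOIL-1L -/- (replicates 1 to 5, called knockout below). HOIL-1L, encoded by Rbck1, is a subunit of LUBAC, the ligase complex that builds linear ubiquitin chains. The genotype label names a plain deletion, whereas the design text gives a floxed HOIL-1L allele with Cre driven by the surfactant protein C promoter, which is active in AT2 cells, so the labels leave the kind of deletion unsettled. No treatment is named for either group, and the letter N that every title carries is not explained. Each title carries its own mouse number, and the libraries were taken as separate mice.

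In resting cells KEAP1 holds NRF2 for ubiquitination by a CUL3 ligase, and NRF2 is degraded. Electrophiles and oxidants modify cysteines of KEAP1, NRF2 then accumulates, pairs with small MAF proteins and binds antioxidant response elements near its target genes. AT2 cells face inhaled oxygen and are known for a high content of glutathione enzymes, catalase and peroxiredoxin 6.

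The level of Rbck1 went against the label in a library of each group. The library labelled wild type 2 held 29.7 normalized counts per M (the deposited values over a constant of 7.14, the average sum of a column in M, or mega) and the one labelled knockout 1 held 59.3, against 56.1 to 57.8 in wild type 3 to 6 and 29.8 to 38.8 in knockout 2 to 5. Every comparison was therefore run for all 10 libraries as labelled and again for the 8 that remain without these 2. Where the text on a gene names neither set, its value is that of all 10. Over the 34 antioxidant genes that passed the filter on low values, the library labelled wild type 2 lay nearer to the mean of wild type 3 to 6 than to that of knockout 2 to 5 for 22 genes. The library labelled knockout 1 also lay nearer to the wild type mean, for 23 of 34 genes. Depth was roughly 7.69 to 13.15 M reads per library, estimated from the lowest values. Mice are numbered in a first run (wild type 2 and 3, knockout 1 to 3) and, after a gap, a second run (wild type 4 to 6, knockout 4 and 5), and what the runs stand for is not labelled. Xist marked 3 libraries as female (wild type 2, knockout 2 and knockout 3). Among the 8 libraries females are thus found in the knockout group alone, so sex is partly confounded with genotype there. Within the first run of these 8, sex and genotype cannot be told apart. All 12 AT2 markers were measured, with sums of 188720 to 225528 per M, whereas the 9 measured macrophage and monocyte markers of 12 summed to 20.7 to 55.1 and the 5 measured red cell markers of 6 to at most 4.32.

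The letters TGACNNNGC, the core of the antioxidant response element, were searched on both strands of promoter windows reaching from 250 bases before to 50 after each RefSeq start (GRCm38.p6, the mm10 assembly). Windows were found for 29 of the 35 genes, and 11 of these (37.9%) held the letters in at least 1 window, against 14% of all 27025 genes with a window. No window was matched for Gclc, Gsr, Prdx6, Gsta4, Abcc1 and Hmox1. The stretches below are shown because they place the letters, in capitals, in genes whose values follow. Each reads 5′ to 3′ on the gene's strand, and letters that lie on the other strand read GCNNNGTCA.
Prdx1 (chr4:116685440-116685500, plus strand): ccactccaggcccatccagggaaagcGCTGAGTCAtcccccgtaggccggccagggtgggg
Me1 (chr9:86695902-86695930, minus strand): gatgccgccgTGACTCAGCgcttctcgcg
Gclm (chr3:122245397-122245457, plus strand): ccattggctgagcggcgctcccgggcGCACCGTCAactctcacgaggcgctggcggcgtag
Txnrd1 (chr10:82859104-82859132, plus strand): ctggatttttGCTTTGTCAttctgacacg
Srxn1 (chr2:152105542-152105570, plus strand): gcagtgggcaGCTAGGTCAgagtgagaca
Gsta3 (chr1:21240438-21240498, plus strand): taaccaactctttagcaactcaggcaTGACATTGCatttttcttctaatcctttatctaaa
Sod1 (chr16:90220680-90220740, plus strand): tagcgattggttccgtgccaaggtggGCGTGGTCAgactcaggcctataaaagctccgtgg
Mgst1 (chr6:138140461-138140489, plus strand): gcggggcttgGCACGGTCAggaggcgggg
G6pdx (chrX:74428919-74428947, minus strand): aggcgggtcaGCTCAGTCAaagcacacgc
Nfe2l2 (chr2:75704869-75704913, minus strand): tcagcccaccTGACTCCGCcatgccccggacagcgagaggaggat
Those of Prdx1 and Me1 also contain an AP-1 site, TGACTCA or its reverse complement, so the same bases can be read as either motif. In Prdx1 the capitals begin 133 and in Gclm 134 bases before the RefSeq start, and in Srxn1 28 bases after it. In Txnrd1 they begin 92 bases before a RefSeq start that lies 25255 bases inside the gene as GENCODE M21 draws it. The RefSeq starts used for G6pdx and Mgst1 lie 314 and 211 bases inside the GENCODE gene, so that their letters, like those of Me1 and Srxn1, fall inside the annotated gene. The remaining gene with the letters was Pgd, at a RefSeq start 689 bases inside the gene. The window of Nqo1 does not hold these letters. A match describes letters only, and binding was not measured.

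Compared per length, as normalized counts per M and per kb of exon, the genes ranged from strongly expressed to barely detected. Ferritin light chain Ftl1 (485), catalase Cat (381) and ferritin heavy chain Fth1 (369) stood highest as means of 10 libraries. Thioredoxin Txn1 (281), the lipid peroxide reductase Gpx4 (229), the glutathione peroxidase Gpx1 (211) and the microsomal transferase Mgst1 (192) followed. The values of Cat and Fth1 overlapped between libraries, as did those of Txn1, Gpx4, Gpx1 and Mgst1 with their neighbours, so the order within these sets is not separated by their spread. At the other end stood the quinone reductase Nqo1 (2.16), the glutathione conjugate exporter Abcc1 (0.805) and the cystine importer Slc7a11 (0.0607). Nfe2l2 itself lay in the middle (52.7) and above Keap1 (16.8). Exon lengths are those of all annotated exons together, which lowers the value of genes with long alternative ends.

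**Figure D1:**
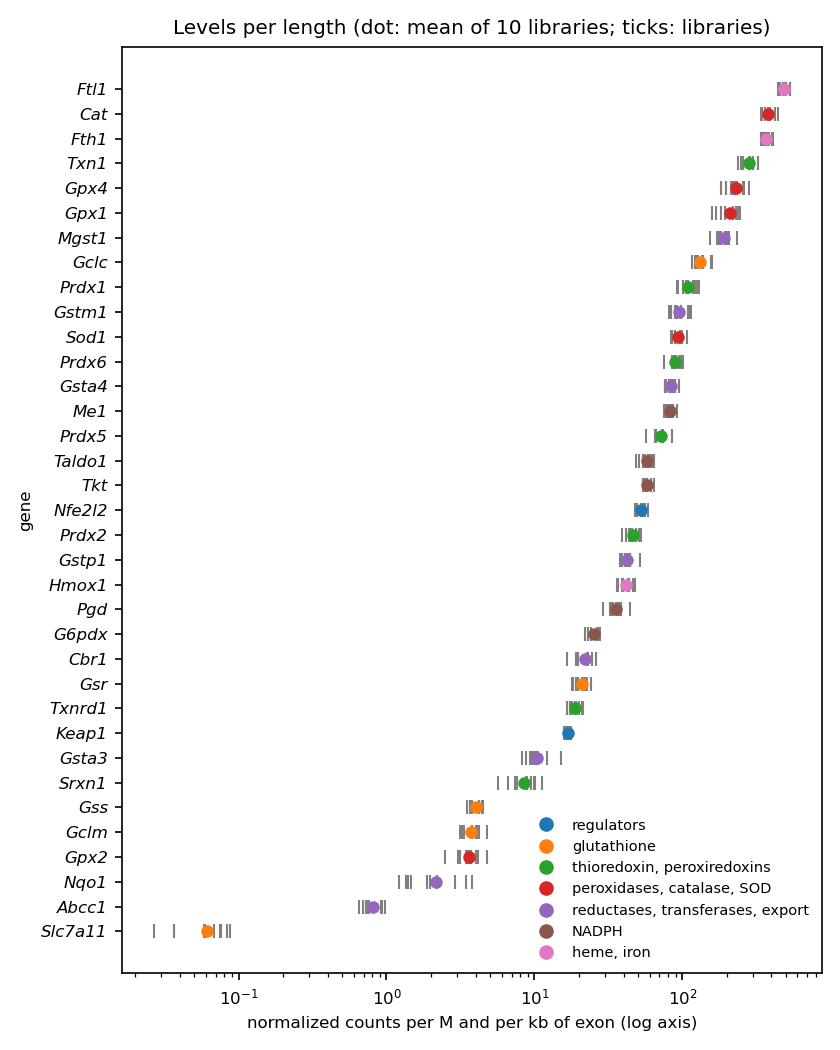
Level of each of the 35 genes per kb of exon, on a log axis, as the mean of 10 libraries (dot, coloured by role) and as single libraries (grey ticks). Ftl1 stands highest at 485 and Slc7a11 lowest at 0.0607, and most genes keep a narrow range across libraries.

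The comparison asked whether RNA levels of antioxidant genes differ between knockout and wild type AT2 cells. None of the 34 genes tested did so past an adjusted p of 0.05 with limma, either with all 10 libraries as labelled (0 of 12946 genes called, 0%) or with the 8 libraries (52 called, 0.402%). Srxn1, which encodes sulfiredoxin, came closest, with a wild type mean of 27.9 per M and a knockout mean of 20.3. In bulk RNA, fewer cells of a type and less RNA per cell cannot be told apart. Most other genes had slightly lower means in the knockout. With 10 libraries 29 of 34 had a negative log2 fold change, where 48.7% of all genes tested did, and with 8 libraries 31 of 34, where 49.9% did. The sizes were small, with a median log2 fold change over the 34 genes of -0.12 with 10 libraries and -0.13 with 8, beside 0.01 and 0.00 over all genes tested. At an unadjusted p of 0.05 with limma 5 genes were lower and 0 higher with 10 libraries (background 3.28% lower and 6.2% higher), and 8 lower and 0 higher with 8 libraries (5.25% and 7.84%). The number of members under that p depended on single libraries: with 10 it became 2 without wild type 4 or knockout 4, 3 without wild type 5 or knockout 3, 10 without knockout 1 and 11 without wild type 6. With 8 it became 2 without wild type 4 and 13 without wild type 6. The 95% interval of the difference lay wholly within 1.5-fold either way for 32 of 34 genes with 10 libraries and for 30 of 34 with 8.

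**Figure D2:**
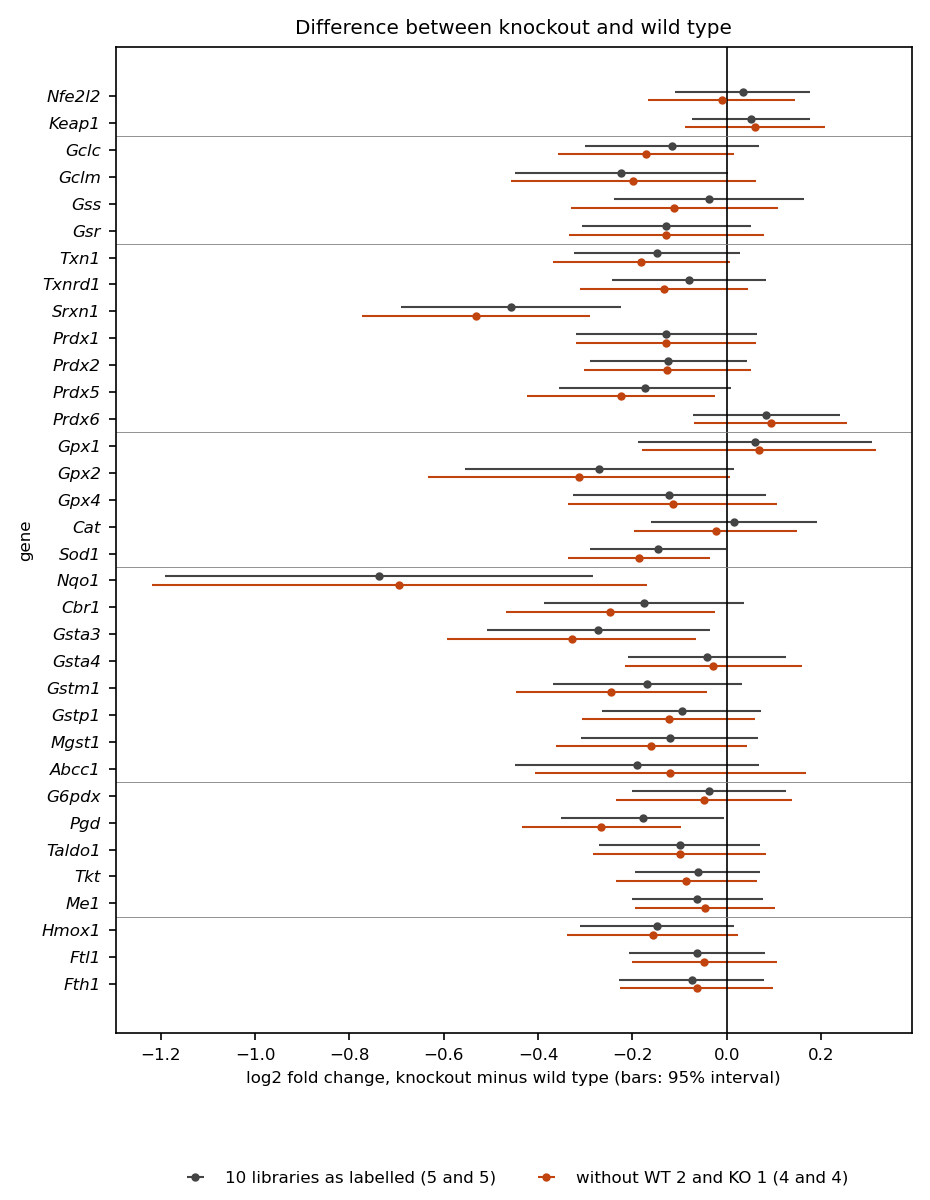
Log2 fold change, knockout minus wild type, with its 95% interval from limma, for the 34 genes tested, with all 10 libraries (grey) and with the 8 libraries (red). Most points lie slightly below 0, Srxn1 and Nqo1 lie farthest from it, and no gene passed an adjusted p of 0.05.

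For the regulators NRF2 and KEAP1 the groups overlapped and the differences were small. Nfe2l2 (chr2:75675513-75704641) stood at 182.7, 188.7, 188.6, 209 and 221 per M in wild type 2 to 6 and at 212, 209, 206, 186.6 and 198.96 in knockout 1 to 5. The groups overlapped widely and the log2 fold change was 0.03 ± 0.07 (SE), with a 95% interval of -0.11 to 0.18. With 8 libraries its sign was the opposite, at -0.01 ± 0.07 (SE), with an interval of -0.17 to 0.15. Keap1 (chr9:21229730-21239361), the sensor and adaptor that presents NRF2 to the ligase, was the steadiest member, at 77.3, 74.8, 78.1, 76.9 and 79.7 per M in wild type 2 to 6 and at 78.4, 82.5, 80.7, 77.3 and 81.9 in knockout 1 to 5. Its log2 fold change was 0.05 ± 0.06 (SE) with an interval of -0.07 to 0.18, so for both regulators the interval excluded a 1.5-fold difference in RNA either way. NRF2 is controlled mainly at the protein level, which these data do not measure.

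Srxn1 (chr2:152105516-152111376, plus strand) encodes sulfiredoxin, which repairs peroxiredoxins whose cysteine has been over-oxidised. It stood at 27.9, 25.1, 31.5, 28.3 and 26.7 per M in wild type 2 to 6 and at 24.9, 20.8, 15.9, 18.6 and 21.5 in knockout 1 to 5. All knockout libraries lay below all wild type ones, although knockout 1 and wild type 3 nearly touched; among all genes tested 0.633% separated in that direction with 10 libraries and 2.87% with 8. The group means were 27.9 ± 2.38 and 20.3 ± 3.36 (SD, n = 5 per group). The log2 fold change was -0.46 ± 0.11 (SE) with 10 libraries (limma adjusted p = 0.314) and -0.53 ± 0.11 (SE) with 8 (adjusted p = 0.0515). With 8 libraries Srxn1 passed with sample weights (adjusted p = 0.0446) and without wild type 3 (adjusted p = 0.0425). In both settings the share of all genes called stayed within 1.5-fold of the 0.402% called in the main fit. Srxn1 lies 205 kb from Rbck1, the targeted gene, on the same chromosome. Of the 16 genes tested within 500 kb of Rbck1, itself included, 0 were called with 10 libraries and only Rbck1 with 8, where the remaining libraries were chosen on its level. Their log2 fold changes with 8 libraries otherwise ran from -0.53 (Srxn1) and -0.34 (6820408C15Rik) to 0.32 (Trib3). At an unadjusted p of 0.05 with limma, Rbck1 and Srxn1 were lower with 8 libraries (background 5.25%). Tbc1d20, Trib3 and Slc52a3 were higher (background 7.84%), and the rest of the 16 were not under that p. With 10 libraries Srxn1 was lower and Tbc1d20 and Slc52a3 higher by it (background 3.28% and 6.2%). The part of this position in the result was not tested.

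Nqo1 (chr8:107388225-107403206, minus strand) encodes a quinone reductase and is a widely used readout of NRF2 activity. It stood at 4.52, 3.08, 5.89, 5.39 and 2.90 per M in wild type 2 to 6 and at 2.18, 2.26, 2.10, 1.88 and 3.40 in knockout 1 to 5. The 4 lowest libraries were all knockout, and knockout 5 lay above wild type 3 and 6. The means were 4.36 ± 1.34 and 2.37 ± 0.597 (SD, n = 5 per group), and the log2 fold change of -0.74 ± 0.21 (SE) was the largest among the members (adjusted p = 0.314, and 0.25 with 8 libraries). At these low levels the 95% interval was wide, -1.19 to -0.28.

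**Figure D3:**
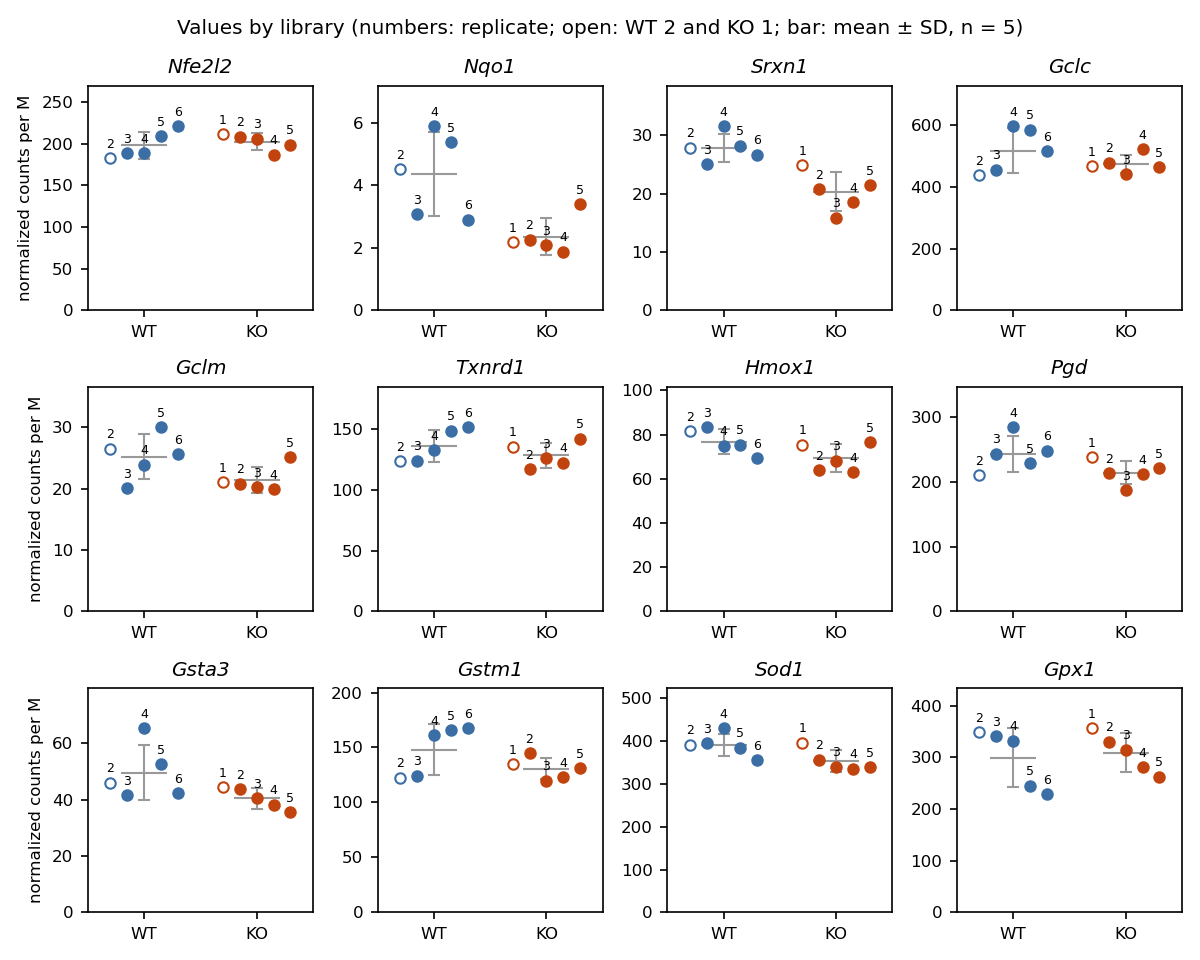
Normalized counts per M in each library for 12 genes, with replicate numbers beside the points, the libraries labelled wild type 2 and knockout 1 as open circles, and bars for mean ± SD of 5 libraries. The groups separate for Srxn1 alone among these 12, while Gpx1 is spread widely within both groups.

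Glutathione is made from cystine taken up by Slc7a11, by the 2 subunits of glutamate-cysteine ligase and by glutathione synthetase, and is kept reduced by Gsr. Of the 4 genes of this group that were tested, 4 had negative log2 fold changes and 0 passed. Gclc, the catalytic subunit (chr9:77754535-77794485), stood at 437, 455, 595, 585 and 514 per M in wild type 2 to 6 and at 467, 478, 440.0, 523 and 463 in knockout 1 to 5. Wild type 4 and 5 were highest and wild type 2 was the lowest of all, so the groups overlapped (log2 fold change -0.12 ± 0.09 (SE)). Gclm, the modifier subunit (chr3:122245557-122270732), stood at 26.5, 20.1, 23.9, 30.0 and 25.6 per M in wild type 2 to 6 and at 21.0, 20.8, 20.3, 19.9 and 25.1 in knockout 1 to 5. Apart from knockout 5 the knockout libraries lay within a narrow range at the low end, beside wild type 3 (log2 fold change -0.22 ± 0.11 (SE), adjusted p = 0.527). Per kb of exon Gclm stood far below Gclc, at 3.71 against 132. Slc7a11 (chr3:49892526-50443614) did not pass the filter and was not tested. It stood at 0.823, 1.16, 1.221, 1.05 and 1.06 per M in wild type 2 to 6 and at 0.508, 0.947, 0.375, 0.507 and 0.809 in knockout 1 to 5. Knockout 1, 3 and 4 were lowest. With 10 libraries the groups overlapped because wild type 2 lay below knockout 2. Among the 8 libraries all knockout values of Slc7a11 lay below all wild type ones, at levels near the filter's 1 per M. Gss and Gsr had log2 fold changes of -0.04 and -0.13.

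The thioredoxin system passes electrons from NADPH through thioredoxin reductase to thioredoxin and on to peroxiredoxins, which remove hydrogen peroxide. Beside Srxn1, 5 of its 6 other members had negative log2 fold changes and 0 passed. Txnrd1, the cytosolic reductase (chr10:82833951-82897712), stood at 124, 124, 133, 149 and 152 per M in wild type 2 to 6 and at 136, 117, 127, 122 and 142 in knockout 1 to 5. It was highest in wild type 5 and 6 and in knockout 5, with overlapping groups (log2 fold change -0.08 ± 0.08 (SE)). Txn1 (chr4:57943373-57956411) stood at 318, 339.8, 341, 296 and 261 per M in wild type 2 to 6 and at 315, 299, 269, 270.0 and 249 in knockout 1 to 5. Here wild type 6 lay among the low knockout libraries (log2 fold change -0.15 ± 0.08 (SE), adjusted p = 0.589). Prdx5, a peroxiredoxin of mitochondria, peroxisomes and cytosol (chr19:6906697-6910106), stood at 156, 181, 181, 159 and 141 per M in wild type 2 to 6 and at 159, 158, 143, 122 and 143 in knockout 1 to 5. Knockout 4 was lowest, and the log2 fold change was -0.17 ± 0.09 (SE) with 10 libraries and -0.22 ± 0.09 (SE) with 8 (adjusted p = 0.32). The 2-cysteine peroxiredoxins Prdx1 (349.9 ± 46.8 and 319 ± 28.7 (SD, n = 5 per group)) and Prdx2 (147 ± 14.8 and 134 ± 10.3 (SD, n = 5 per group)) had log2 fold changes of -0.13 and -0.12. Prdx6, the 1-cysteine peroxiredoxin that also acts as a phospholipase on surfactant lipids, had the highest log2 fold change of all members, 0.08 ± 0.07 (SE), with means of 417 ± 34.7 and 442 ± 33.9 (SD, n = 5 per group).

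Among peroxidases, catalase and superoxide dismutase, 3 of 5 genes had negative log2 fold changes with 10 libraries, 4 of 5 with 8, and 0 passed. Sod1, the cytosolic superoxide dismutase (chr16:90220754-90226329), stood at 391, 394, 429, 384 and 355 per M in wild type 2 to 6 and at 396, 356, 339, 335 and 339 in knockout 1 to 5. Knockout 2 to 5 lay at the low end together with wild type 6, and the log2 fold change was -0.15 ± 0.07 (SE) with 10 libraries and -0.19 ± 0.07 (SE) with 8 (adjusted p = 0.283). Gpx2, an epithelial glutathione peroxidase (chr12:76792333-76795554), stood at 12.9, 10.2, 13.4, 15.5 and 11.6 per M in wild type 2 to 6 and at 11.998, 11.4, 7.99, 11.1 and 9.87 in knockout 1 to 5. Its highest library was wild type 5 and its lowest knockout 3 (log2 fold change -0.27 ± 0.13 (SE)). Gpx4, which reduces lipid peroxides in membranes, had means of 414 ± 66.7 and 377 ± 24.3 (SD, n = 5 per group), and Cat of 990.4 ± 91.3 and 1002 ± 99.8 (SD, n = 5 per group). The log2 fold change of Cat was 0.02 ± 0.08 (SE) with 10 libraries and -0.02 ± 0.08 (SE) with 8. Gpx1, which reduces hydrogen peroxide with glutathione, had means of 299 ± 57.2 and 309 ± 37.7 (SD, n = 5 per group) and a log2 fold change of 0.06 ± 0.12 (SE). It stood at 349, 341, 332, 245 and 229 per M in wild type 2 to 6 and at 356, 331, 315, 281 and 262 in knockout 1 to 5. Wild type 2 to 4 lay near the first-run knockout libraries, and wild type 5 and 6 were lowest of all.

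Reductases, glutathione transferases and the exporter Abcc1 clear quinones, carbonyls and lipid aldehydes. All 8 members had negative log2 fold changes in both comparisons and 0 passed. Gsta3, an alpha-class glutathione transferase (chr1:21240589-21265661), stood at 46.1, 41.7, 65.3, 52.7 and 42.3 per M in wild type 2 to 6 and at 44.5, 43.7, 40.6, 38.3 and 35.5 in knockout 1 to 5. Wild type 4 stood apart at the top, knockout 4 and 5 were lowest, and the means were 49.6 ± 9.82 and 40.5 ± 3.74 (SD, n = 5 per group), with a log2 fold change of -0.27 ± 0.11 (SE) (adjusted p = 0.479). Gstm1, a mu-class transferase (chr3:108012255-108017973), stood at 122, 124, 161, 166 and 167 per M in wild type 2 to 6 and at 135, 145, 119.8, 123 and 131 in knockout 1 to 5. Wild type 4 to 6 lay above every knockout library, whereas wild type 2 and 3 lay among them (log2 fold change -0.17 ± 0.09 (SE), and -0.25 ± 0.10 (SE) with 8 libraries). Cbr1, a carbonyl reductase (chr16:93605853-93610505), stood at 58.0, 58.6, 66.6, 62.3 and 50.3 per M in wild type 2 to 6 and at 62.6, 58.0, 50.6, 49.0 and 42.6 in knockout 1 to 5. Knockout 5 was lowest, and the log2 fold change was -0.18 ± 0.10 (SE) with 10 libraries and -0.25 ± 0.10 (SE) with 8 (adjusted p = 0.323). Gsta4, which conjugates lipid aldehydes, Gstp1, the pi-class transferase, Mgst1 and Abcc1 had log2 fold changes from -0.19 (Abcc1) to -0.04 (Gsta4). Glutathione transferase genes are families of similar copies, whose reads the counting may have shared out or dropped, so the level of a single transferase is uncertain. Ftl1, Gpx2, Gpx4 and Prdx6 have named pseudogenes in the annotation and share that limit.

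NADPH for both systems comes from the pentose phosphate pathway and malic enzyme. All 5 members had negative log2 fold changes, and 0 passed. Pgd, which encodes 6-phosphogluconate dehydrogenase, the second NADPH-producing step (chr4:149149991-149166771), stood at 211, 243, 284, 228 and 248 per M in wild type 2 to 6 and at 238, 213, 187.2, 211 and 221 in knockout 1 to 5. With 10 libraries the groups overlapped because wild type 2 was low and knockout 1 high (log2 fold change -0.18 ± 0.08 (SE), adjusted p = 0.513). In the 8 libraries all knockout values lay below all wild type ones, which held for 2 of the 34 genes, Pgd and Srxn1, and for 2.87% of all genes tested (log2 fold change of Pgd -0.27 ± 0.08 (SE), adjusted p = 0.178). G6pdx, the first enzyme of the pathway, had means of 78.7 ± 5.94 and 76.7 ± 6.77 (SD, n = 5 per group) and a log2 fold change of -0.04 ± 0.08 (SE). The transaldolase Taldo1 (-0.10), the transketolase Tkt (-0.06) and malic enzyme Me1 (-0.06) likewise did not pass, as log2 fold changes with 10 libraries.

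Heme oxygenase releases iron from heme and ferritin stores it. Hmox1 (chr8:75093621-75100589), which is repressed by BACH1 and induced through NRF2, stood at 81.4, 83.2, 74.9, 75.5 and 69.3 per M in wild type 2 to 6 and at 75.5, 64.0, 68.1, 63.0 and 76.5 in knockout 1 to 5. Knockout 2, 3 and 4 were the 3 lowest libraries, and knockout 1 and 5 lay at the level of wild type 4 and 5 (log2 fold change -0.15 ± 0.08 (SE), adjusted p = 0.572). Ftl1 (665 ± 50.6 and 635 ± 29.8 (SD, n = 5 per group)) and Fth1 (1313 ± 98.2 and 1246 ± 65.2 (SD, n = 5 per group)) had log2 fold changes of -0.06 and -0.07. Macrophages also express Hmox1 and ferritins strongly. Their 9 measured markers summed to 20.7 to 49.8 per M in wild type and to 21.9 to 55.1 in knockout. By symbol, C1qa, C1qb and Ccr2 were not found among the 16154 genes. The 6 markers tested had positive log2 fold changes in both comparisons with 0 called.

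**Figure D4:**
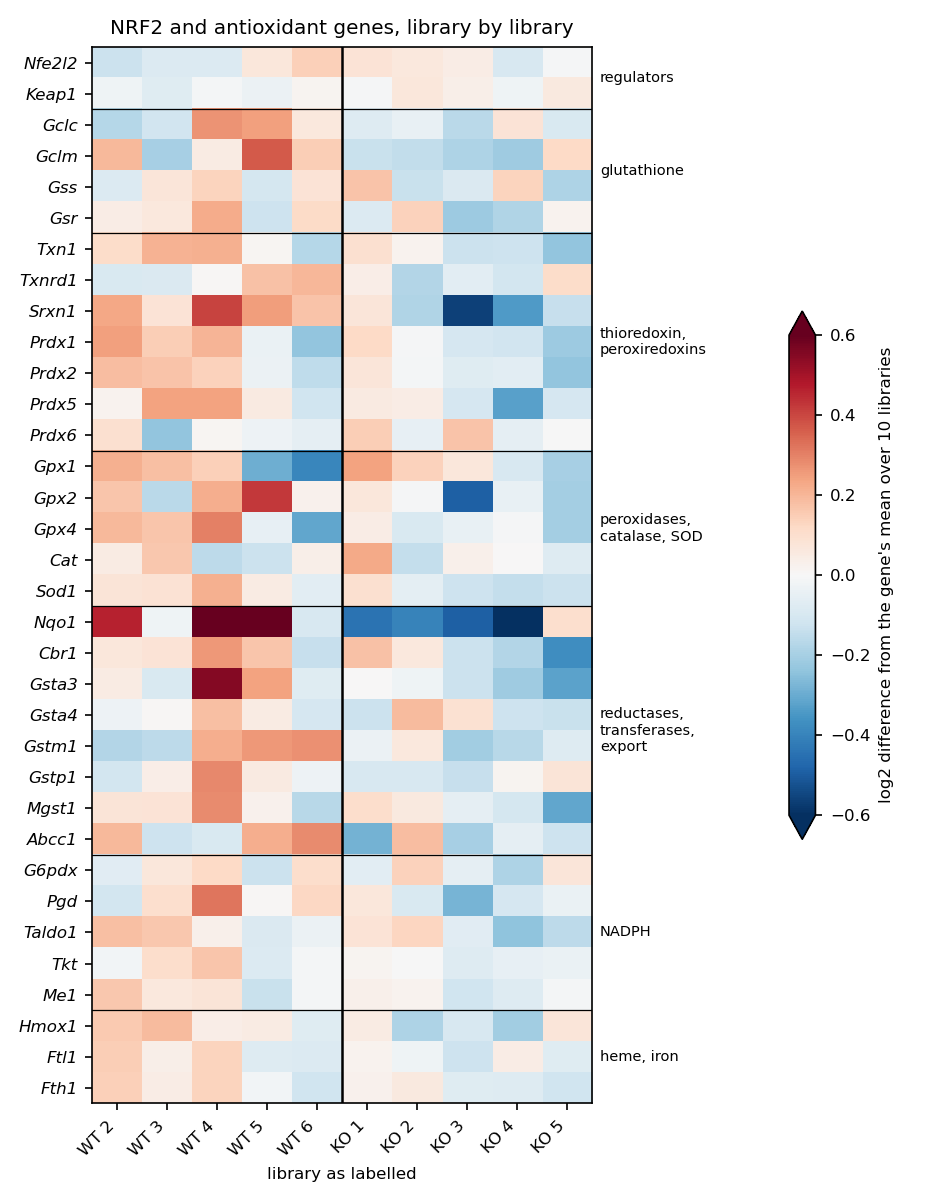
Log2 difference of each of the 34 genes from its own mean over 10 libraries, ordered by role, with wild type libraries left and knockout libraries right of the line. Wild type 4 lies above the mean in 30 of 34 rows, and knockout 3, 4 and 5 in 6, 5 and 8, while Nfe2l2 and Keap1 vary little.

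The lower values were not spread evenly over the libraries. The median difference of the 34 genes from their own means, on the log2 scale, was 0.08, 0.07, 0.17, 0.02 and -0.03 in wild type 2 to 6. It was 0.05, -0.01, -0.10, -0.10 and -0.10 in knockout 1 to 5. Knockout 3, 4 and 5 were thus lowest, wild type 4 stood apart at the top, and the remaining knockout libraries lay among the wild type ones. The length of a gene's RNA moved with the same libraries. The members had a median exon length of 3046 bp, against 4289 bp over all genes tested with a length. The slope of a library's log2 values on length was most negative in wild type 4 (-0.07 per doubling) and most positive in knockout 5 (0.05). After each library's trend on length was removed, 27 of 34 genes had a negative log2 fold change with 10 libraries and 27 of 34 with 8. The median was then -0.09 with 10 libraries and -0.10 with 8. The part of length in the lower values was otherwise not tested.

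**Figure D5:**
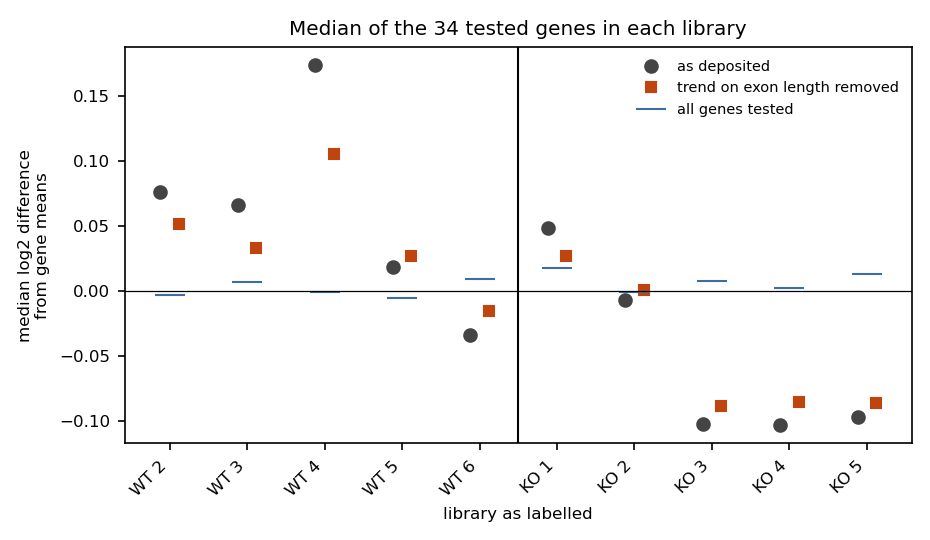
Median log2 difference of the 34 genes from their means in each library as deposited (grey circles), after removal of the trend on exon length (red squares), and the same median over all genes tested (blue lines). The range is -0.10 to 0.17 as deposited, and the order of the libraries is much the same without the length trend.

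Markers of other cells that the sort could hold were read beside these values. Sums of 8 club cell markers ran from 5678 to 10588 per M in wild type and from 5912 to 10467 in knockout, and 2 of 8 had negative log2 fold changes with 10 libraries and 4 of 8 with 8. Of the AT2 markers 8 of 12, and of the 10 AT1 markers 8, had negative log2 fold changes with 10 libraries. With 8 libraries the numbers were 9 and 8, and 0 were called in either comparison. Ciliated cell markers had 7 of 8 negative log2 fold changes with 10 libraries and 8 of 8 with 8 (median -0.28), and 0 were called. Their sums were 695 to 1108 in wild type and 732 to 961 in knockout. At an unadjusted p of 0.05 with limma, 6 ciliated markers were lower and 0 higher with 8 libraries (background 5.25% and 7.84%). By it 4 AT1 markers were lower and 1 higher, and 0 AT2 markers lower and 1 higher. Of the 5 fibroblast, smooth muscle and mesothelium markers tested 4, all of fibroblasts, had negative log2 fold changes in both comparisons (Col1a1 -1.03 and Col3a1 -1.01 with 8 libraries, adjusted p = 0.226 and 0.2 with limma) and 0 of these were called, whereas the mesothelial Msln was called higher with 8 libraries (1.53, adjusted p = 0.0327). Their sums were 9.94 to 25.9 per M. The part of these cell types in the lower antioxidant values was not tested.

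Between the runs of mouse numbers, with genotype as labelled in the model, 0 of the 34 genes passed (background 0.626%). At an unadjusted p of 0.05 with limma 5 were lower and 1 higher in the second run (background 7.55% and 8.22%). Gpx1 came closest, with a log2 difference, second minus first run, of -0.34 ± 0.09 (SE) (adjusted p = 0.0806), followed by Taldo1 (-0.22 ± 0.06 (SE), adjusted p = 0.0984). Prdx1, Prdx2 and Txn1 were also lower in the second run by that unadjusted p, and Gclc was higher (0.21 ± 0.07 (SE)). Among the markers tested, 4 of 6 of macrophages and monocytes were called lower and 4 of 8 of ciliated cells higher in the second run, and their part in these differences was not tested. The second run alone (wild type 4 to 6, knockout 4 and 5) holds neither library with a doubtful label, but it holds wild type 4, which stood apart at the top. There 31 of 34 genes had negative log2 fold changes between knockout and wild type, where 48.2% of all genes tested did. Of the 34, 0 passed, and their median was -0.15. In the first run, with both doubtful labels taken as given, the count was 26 of 34 (49.7% of all genes tested), with 0 passing and a median of -0.09.

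Of 92 further genes of the same pathways, 82 were tested. With 10 libraries 0 passed (0% of all genes tested), and with 8 libraries 1 did (0.402%). This was Nnt, the mitochondrial transhydrogenase that makes NADPH from NADH. It stood at 74.5, 27.8, 22.2, 18.7 and 23.2 per M in wild type 2 to 6 and at 30.1, 74.8, 51.4, 74.2 and 66.0 in knockout 1 to 5. The library labelled wild type 2 lay among knockout 2 to 5 and the one labelled knockout 1 near wild type 3 to 6, as they did for Rbck1 (log2 fold change 1.51 ± 0.13 (SE) with 8 libraries, adjusted p = 1.1e-05, and 0.95 ± 0.30 (SE) with 10, adjusted p = 0.359). Nnt is a gene that varies between mouse substrains, and the strain is given here as C57BL/6. The part of strain background in its difference was not tested. Negative log2 fold changes were seen for 56 of the 82 with 10 libraries (48.7% of all genes tested) and for 58 with 8 (49.9%).

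The regulator nearest to passing was Bach1, which encodes the repressor that competes with NRF2 at antioxidant response elements. It stood at 54.7, 61.3, 60.4, 68.6 and 80.5 per M in wild type 2 to 6 and at 80.6, 85.9, 93.7, 97.7 and 83.3 in knockout 1 to 5. All knockout libraries lay above all wild type ones, although wild type 6 and knockout 1 nearly touched (background 0.958% with 10 libraries and 3.85% with 8). Its means were 65.1 ± 9.93 and 88.2 ± 7.19 (SD, n = 5 per group), and the log2 fold change was 0.45 ± 0.09 (SE) with 10 libraries (adjusted p = 0.285) and 0.42 ± 0.09 (SE) with 8 (adjusted p = 0.0673), so Bach1 did not pass in either. Rbx1, the RING subunit of the CUL3 ligase, had the next smallest p, with 8 libraries (log2 fold change -0.16, and -0.09 with 10).

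Of the other roles the 2 genes with the smallest p in either comparison follow, and Nnt alone passed. Akr1b8, an aldo-keto reductase, had means of 39.1 ± 3.57 and 29.7 ± 5.90 (SD, n = 5 per group) and a log2 fold change of -0.41 ± 0.11 (SE) (adjusted p = 0.314). The theta-class transferase Gstt2 stood at -0.27 ± 0.10 (SE) and glutaredoxin Glrx at -0.21 ± 0.07 (SE), both as log2 fold changes with 10 libraries. For the glyoxalase Hagh the value was -0.15, for Ccs, the copper chaperone of SOD1, -0.23, for Park7 -0.15, for mitochondrial thioredoxin Txn2 -0.14 and for Pgls of the pentose phosphate pathway -0.24. Biliverdin reductase Blvrb stood at -0.14 and the transferrin receptor Tfrc at -0.07 (with 8 libraries -0.22 and -0.10). Sesn2, a stress-induced sestrin, lay above 0, with means of 36.3 ± 5.83 and 46.8 ± 7.42 (SD, n = 5 per group) and a log2 fold change of 0.36 ± 0.12 (SE) (adjusted p = 0.359).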

How the data were processed

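NEBNext Ultra libraries of polyA RNA were sequenced by Illumina, per the labels' protocols. In the submitters' processing notes bcl2fastq 2.17, edgeR 3.14.0 and the build mm10 appear with no role. The aligner, annotation and strand setting were not given in the sources used. Without a stated strand setting, reads of the 8 members whose exons overlap a gene on the other strand cannot be told apart from it. The authors deposited a signal of normalized counts per gene, with column totals of 6.94 to 7.43 M, and depth was estimated by dividing each total by the lowest cluster of values, taken as 1 read. No single step per library made the low values whole (16.4 to 89.5% of those under 20 steps, within 0.05), so no count test was run and no counting interval is given.

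Values were divided by 7.14, the mean total in M. The filter kept the 12946 genes that reached 1 per M in 5 or more libraries. Limma-trend (limma 3.58.1, R 4.3.3) was fitted to log2(value + 0.5), two-sided, knockout minus wild type, with Benjamini-Hochberg adjustment over all genes and a threshold of 0.05. Fold changes on that scale understate the change of low genes. Symbols and exon lengths come from GENCODE M21 (mm10), promoters from RefSeq. Members and lists were chosen with earlier results of these data known. Of the members, Nfe2l2, Keap1, 7 classical NRF2 targets and the 8 others with the smallest p have their values in every library printed, and of the further genes those called and up to 2 per role with the smallest p in either comparison are named; Gpx1, given as well, was chosen after its values were seen. The tests were checked on simulated data. Alternatives were pseudocounts of 0.1 and 2, other filters, TMM, equal totals and median-ratio factors, replicate block, run or sex as a covariate, each run alone, sample weights, removal of the length trend and leaving out each library.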

Additional observations from a re-analysis of the deposited data

Results flagged for a closer look

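Both members whose highest or lowest library stood apart from the others of its group did so in knockout 5. Nqo1 stood there at 3.40 per M, against 1.89 to 2.26 in knockout 1 to 4, and Gclm at 25.15 per M, against 19.9 to 21.0. These are 2 of 70 groups of 5 libraries examined, and chance flags about 1 in 20.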

How the results depend on the processing

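The median log2 fold change of the 34 genes kept its sign and moved by less than the spread between libraries under every alternative (-0.15 to -0.09 with 10 libraries and -0.18 to -0.09 with 8). With 10 libraries the share of all genes called (0%) became 0.00772% with run as a covariate, 0.317% in the second run alone and 0% to 0.0309% when single libraries were left out (highest without the library labelled knockout 1). With 8 libraries the share (0.402%) became 0.0629% with no filter, 1.42% in the first run and 0.209% with a sex term. In that first run wild type 3 is the lone wild type library and is assumed to vary like the others. The share became 0.147% to 0.772% on leaving out single libraries (0.201% without wild type 4, 0.147% without wild type 5, 0.772% without wild type 6, with 0.247% after removal of knockout 3 and 0.649% of knockout 4). The members called with 8 libraries numbered 1 with sample weights (Srxn1) and 0 to 1 on leaving out single libraries (1 without wild type 3). With sample weights and without wild type 3 the share of all genes called stayed within 1.5-fold of 0.402%. Between runs the share (0.626%) was 0.501% at a filter of 5 per M and 0.139% to 1.07% on leaving out single libraries, with 0 to 1 members called (1 without wild type 4). The cause was not tested.

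The replicate numbers were not taken as pairs. Same-numbered libraries correlated at 0.31, 0.03, 0.10 and 0.08 for numbers 2 to 5. With knockout libraries of other numbers, wild type 2 to 5 correlated at up to 0.27, 0.20, 0.06 and 0.20. The same-numbered value was the higher for numbers 2 and 4 alone. Whether the numbers pair the samples is not settled by these values. With the replicate number as a block, 2.02% of all genes were called with 10 libraries and 3.07% with 8. The members called numbered 1 (Srxn1) and 4 (Prdx5, Txn1, Srxn1 and Cbr1). A library whose number lacks a partner adds nothing to the genotype term of that fit. These were wild type 6 and knockout 1 with 10 libraries, and wild type 6 and knockout 2 with 8. The calls with 10 libraries thus rest on numbers 2 to 5, wild type 2 included, and those with 8 on 3 to 5. Under the block the sign changed for Gpx1 (-0.084) and Cat (-0.028) with 10 libraries, and for Nfe2l2 (0.012), Gpx1 (-0.086) and Cat (0.027) with 8.

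Other changes of sign were of log2 fold changes of at most 0.13 in size, none called. With 10 libraries they were, with run as a covariate, Gpx1 (-0.0073) and Cat (-0.011). In the first run alone they were Gclc (0.049), Txnrd1 (0.024), Gpx1 (-0.048), Cat (-0.067), Gsta4 (0.063), Gstm1 (0.11) and G6pdx (0.0065), and in the second Nfe2l2 (-0.094) and Prdx6 (-0.0057). With sample weights it was Cat (-0.0018), and without the length trend Gsta4 (0.026) and Ftl1 (0.0052). On leaving out single libraries Gss ranged from -0.085 to 0.0031, Gpx1 from -0.030 to 0.12, Cat from -0.039 to 0.058 and G6pdx from -0.076 to 0.0045. With 8 libraries they were, at equal totals, Nfe2l2 (0.027), Cat (0.014) and Gsta4 (0.0095), and with run as a covariate Gpx1 (-0.0067). In the first run alone they were Nfe2l2 (0.13), Gclc (0.011), Gclm (0.031), Gpx1 (-0.078), Gsta3 (0.015), Gsta4 (0.13), Gstm1 (0.084) and Abcc1 (0.12), and in the second Prdx6 (-0.0057) and Cat (0.045). With sex as a covariate it was Gpx1 (-0.057), and without the length trend Nfe2l2 (0.00092), Cat (0.022), Gsta4 (0.056) and Ftl1 (0.036). On leaving out single libraries Nfe2l2 ranged from -0.042 to 0.033, Gpx1 from -0.033 to 0.16, Cat from -0.069 to 0.037, Gsta4 from -0.090 to 0.020 and G6pdx from -0.10 to 0.011. Low level limits Nqo1 and Slc7a11 most.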
